A study of Mus musculus with 6 samples.

Results

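The genes described here are 32 macrophage and myeloid cell genes, out of 52550 mouse genes counted in the whole heart of mice at postnatal day 7. They were chosen by name, and each name matched 1 counted gene in the GRCm38 annotation. The GR-cKO group has a cardiomyocyte-specific deletion of the glucocorticoid receptor gene, Nr3c1, and the control group is named only as control. The sources used here do not name the Cre line, the deleted exon, the genotype and strain of the controls or the sex of the animals. Each group has 3 libraries, labelled as biological replicates, made from the 3′ ends of polyadenylated RNA. The study asked how the deletion alters expression in the heart early after birth. The deletion is labelled as one of cardiomyocytes, so myeloid cells were not its stated target.

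Macrophages are the most abundant resident leukocytes of the heart. They live on signals through the receptor CSF1R, clear dying cells and debris, make complement and take part in vessel growth and scar formation. In the mouse heart, long-lived macrophages of embryonic origin carry TIMD4, LYVE1 and FOLR2. Other macrophages carry CCR2, come from blood monocytes and have more class II proteins, which present antigen. Glucocorticoids act on macrophages directly through their own receptor. The members were taken in 4 roles, with 15 genes of resident and tissue macrophages, 6 of monocytes, 7 of myeloid signalling shared with other leukocytes, and 4 of antigen presentation.

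Promoter windows, from 250 bases before to 50 bases after a transcription start, show the kind of sequence that marks these genes. They come from RefSeq (GRCm38.p6), and the set used here had 29 windows for 24 of the 32 members. The other 8 had no window in this set and were not searched, which does not mean that RefSeq lacks them. These were Csf1r, Adgre1, Lyve1, C1qa, Cd14, Tyrobp, Cd74 and H2-Ab1. The transcription factor PU.1 drives the myeloid programme and binds a core of the letters GAGGAA. Fcgr3, Laptm5 and F13a1 are shown because they had the smallest p-values of the members, which was known when they were picked, and their capitals mark GAGGAA on either strand (TTCCTC is its reverse complement). H2-Aa and H2-Eb1 are shown because class II genes share promoter elements, among them the Y box, and their capitals mark its letters CTGATTGG. Each is written 5′ to 3′ on the strand of the gene.
Fcgr3 (chr1:171059354-171059653, minus strand): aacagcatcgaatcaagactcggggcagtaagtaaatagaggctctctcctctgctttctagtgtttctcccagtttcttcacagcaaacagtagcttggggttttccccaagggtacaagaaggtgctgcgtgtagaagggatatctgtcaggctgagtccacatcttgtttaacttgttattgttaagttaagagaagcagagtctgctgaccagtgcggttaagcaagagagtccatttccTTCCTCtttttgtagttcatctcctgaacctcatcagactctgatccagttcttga
Laptm5 (chr4:130913066-130913365, plus strand): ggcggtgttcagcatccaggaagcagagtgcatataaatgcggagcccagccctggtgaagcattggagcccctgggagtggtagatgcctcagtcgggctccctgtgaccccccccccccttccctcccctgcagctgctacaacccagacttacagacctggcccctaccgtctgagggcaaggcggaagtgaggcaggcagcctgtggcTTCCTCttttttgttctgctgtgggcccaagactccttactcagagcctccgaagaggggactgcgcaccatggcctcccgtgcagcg
F13a1 (chr13:37050195-37050494, minus strand): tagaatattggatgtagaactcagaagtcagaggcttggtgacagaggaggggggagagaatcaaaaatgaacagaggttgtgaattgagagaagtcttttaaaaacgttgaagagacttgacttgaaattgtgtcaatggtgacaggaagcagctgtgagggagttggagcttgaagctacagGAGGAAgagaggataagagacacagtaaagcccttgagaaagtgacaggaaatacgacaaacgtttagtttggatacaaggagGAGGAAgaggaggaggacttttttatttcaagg
H2-Aa (chr17:34287774-34288073, minus strand): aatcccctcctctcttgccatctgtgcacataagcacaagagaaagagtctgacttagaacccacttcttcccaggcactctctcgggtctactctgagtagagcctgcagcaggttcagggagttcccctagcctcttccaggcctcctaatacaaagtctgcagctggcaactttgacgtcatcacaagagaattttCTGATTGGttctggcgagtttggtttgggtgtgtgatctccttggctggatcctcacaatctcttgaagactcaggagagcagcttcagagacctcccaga
H2-Eb1 (chr17:34305617-34305916, plus strand): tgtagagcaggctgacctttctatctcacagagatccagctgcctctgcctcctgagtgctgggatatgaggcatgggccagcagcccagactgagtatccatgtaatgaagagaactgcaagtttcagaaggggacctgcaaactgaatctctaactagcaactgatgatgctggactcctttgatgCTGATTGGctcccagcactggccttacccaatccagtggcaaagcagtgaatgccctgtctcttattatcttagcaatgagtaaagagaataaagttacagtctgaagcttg

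GAGGAA was found on either strand in 16 of the 29 member windows and in 28.3% of 32851 windows of all genes. In Fcgr3 and Laptm5 it began 6 and 38 bases before the start, on the opposite strand. The Y box letters were in 2 of the 29 windows, those of H2-Aa and H2-Eb1, and in 4.1% of all windows. The other antigen presentation members, H2-Ab1 and Cd74, had no window and were not searched. The core of a glucocorticoid response element, searched as ACANNNTGT, which reads the same on both strands, was in 8 of the 29 windows and in 6.85% of all windows. The 8 windows belong to C1qc, Ctss, Fcgr3, Lyz2, Ms4a7 and Timd4, and windows of the same gene can overlap. The full palindrome, AGAACA and its reverse complement with 3 free bases between them, was in none of the 29 windows and in 0.00913% of all windows. These are matches of letters in short windows, and factor binding was not measured.

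The libraries held 18135540 to 22999192 reads each, and spike-in transcripts took 1.63 to 2.01% of them. The values below are CPM, read counts scaled to a common total over the tested genes by edgeR's TMM factors. A 3′ library reads the end of each transcript, so that CPM does not grow with transcript length. Nr3c1 had 57.6, 49.2 and 56.2 CPM in the GR-cKO hearts, against 114, 131 and 99.7 CPM in the control hearts. The edgeR log2 fold change was -1.08 (SE 0.125), with an adjusted p of 0.00101. All GR-cKO hearts lay below all control hearts for this gene, as the labels have it. GR-cKO replicate 3 stood apart in Gm42418, a transcript within ribosomal RNA sequence. It took 10.9% of the mouse reads there, against 5.47 to 7.69% in the other libraries, and some log2 fold changes are also given without it. Nothing in the labels says that the hearts came from separate litters. The p-values set each difference between groups against the spread among these 6 hearts within their groups, which edgeR estimates using all tested genes.

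None of the 32 genes passed the edgeR test, and their summed level was nearly the same in both groups. Together they had 344, 355 and 389 CPM in GR-cKO replicates 1, 2 and 3, against 342, 392 and 338 CPM in control replicates 1, 2 and 3, and the same order of replicates is used for all values below. The means were 363 ± 23.1 CPM in GR-cKO and 357 ± 30.2 CPM in control hearts (SD, n = 3 each). The groups overlapped, and the highest heart was control replicate 2, followed by GR-cKO replicate 3. In bulk tissue, fewer cells of a type and less RNA per cell cannot be told apart.

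**Figure D1:**
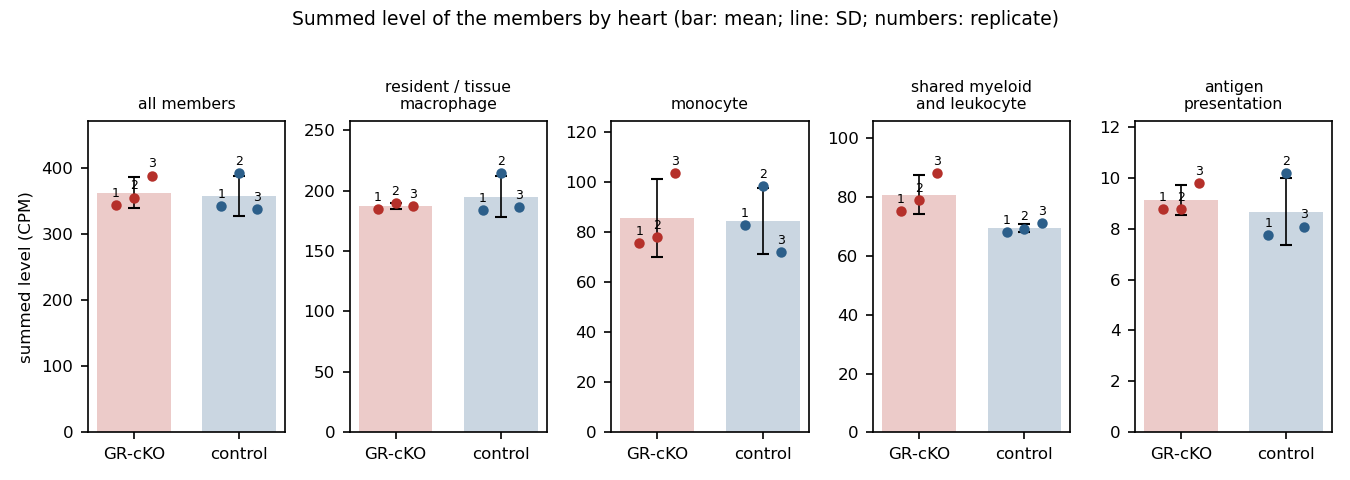
Summed level in CPM of all 32 members and of each role (vertical axes, which start at 0 and differ in scale) in GR-cKO and control hearts. Bars are means, lines are SDs over 3 hearts, and points are hearts with their replicate number; the 2 groups overlap in every panel except the shared myeloid and leukocyte genes.

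Of the 32 members 30 had enough reads to be tested, and Timd4 and Itgam did not. The adjusted p was below 0.05 for none of the 30 and for 0.00673% of all 14860 tested genes, which is Nr3c1 alone. The smallest adjusted p of a member was 0.998 by edgeR. DESeq2 and limma voom, run as alternatives, also called none of the members. At an unadjusted p under 0.05 there were 3 members, Fcgr3 and Laptm5 higher and F13a1 lower in GR-cKO hearts, or 10% of the 30, against 4.20% of all tested genes. The higher members were 2 of the 30, where 2.07% of all tested genes were higher at this p, and the lower member was 1, where 2.13% were lower. Without GR-cKO replicate 3 that count was 0 of 31 tested members, and without control replicate 2 it was 1 of 32, Csf1r. Taken by direction alone, 18 of the 30 members had a positive log2 fold change, or 60%, against 51.3% of all tested genes. The median was 0.11 over the 30 members and 0.0057 over all tested genes. With no filter on low counts it was 0.11 over all 32 members. The groups did not overlap for 4 of the 30 members, or 13.3%, against 9.97% of all tested genes. These were Ly86, Fcgr3 and Laptm5, higher in all GR-cKO hearts, and C1qc, lower in all of them, where 4.70% of all tested genes were higher and 5.27% lower in this way.

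The data bound most of the abundant members more tightly than the rare ones. For 14 of the 30 tested members, or 46.7%, the 95% interval lay within a 2-fold change in either direction, against 72.2% of all tested genes. Within a 1.5-fold change lay the intervals of 6 members, against 47.8% of all tested genes. The SE of a log2 fold change ran from 0.137 for Lyz2, which had 1186 to 1705 reads in a library, to 0.788 for Ccr2, which had 3 to 35.

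**Figure D2:**
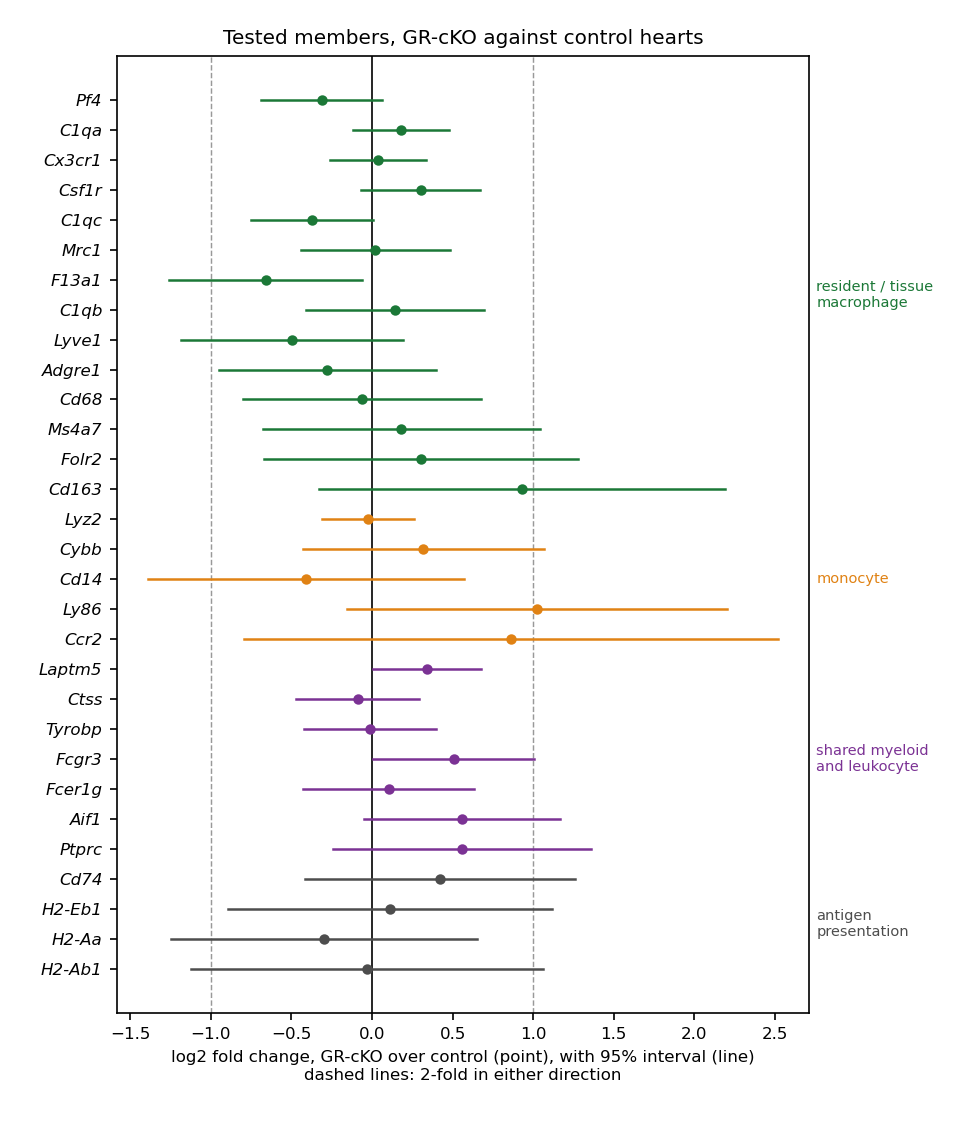
Log2 fold change of GR-cKO over control (horizontal axis, points) with its 95% interval (lines) for the 30 tested members, grouped by role and, within a role, from the highest to the lowest mean level. The intervals tend to widen downward within a role, and only those of F13a1, Laptm5 and Fcgr3 leave out 0 before adjustment.

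Levels differed far more between genes than between hearts. Lyz2, which encodes the lysozyme of monocytes and macrophages, had the highest level, and Lyz2, Pf4, C1qa and Cx3cr1 together made up 50.6% of the summed CPM. All 6 hearts had more of Lyz2 than any heart had of Pf4, the next in order. From Pf4 down through C1qa, Cx3cr1, Laptm5 and Csf1r, each gene overlapped its neighbour in range. Cd163, Ly86, Ccr2, Itgam and Timd4 had the lowest means over the 6 hearts.

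**Figure D3:**
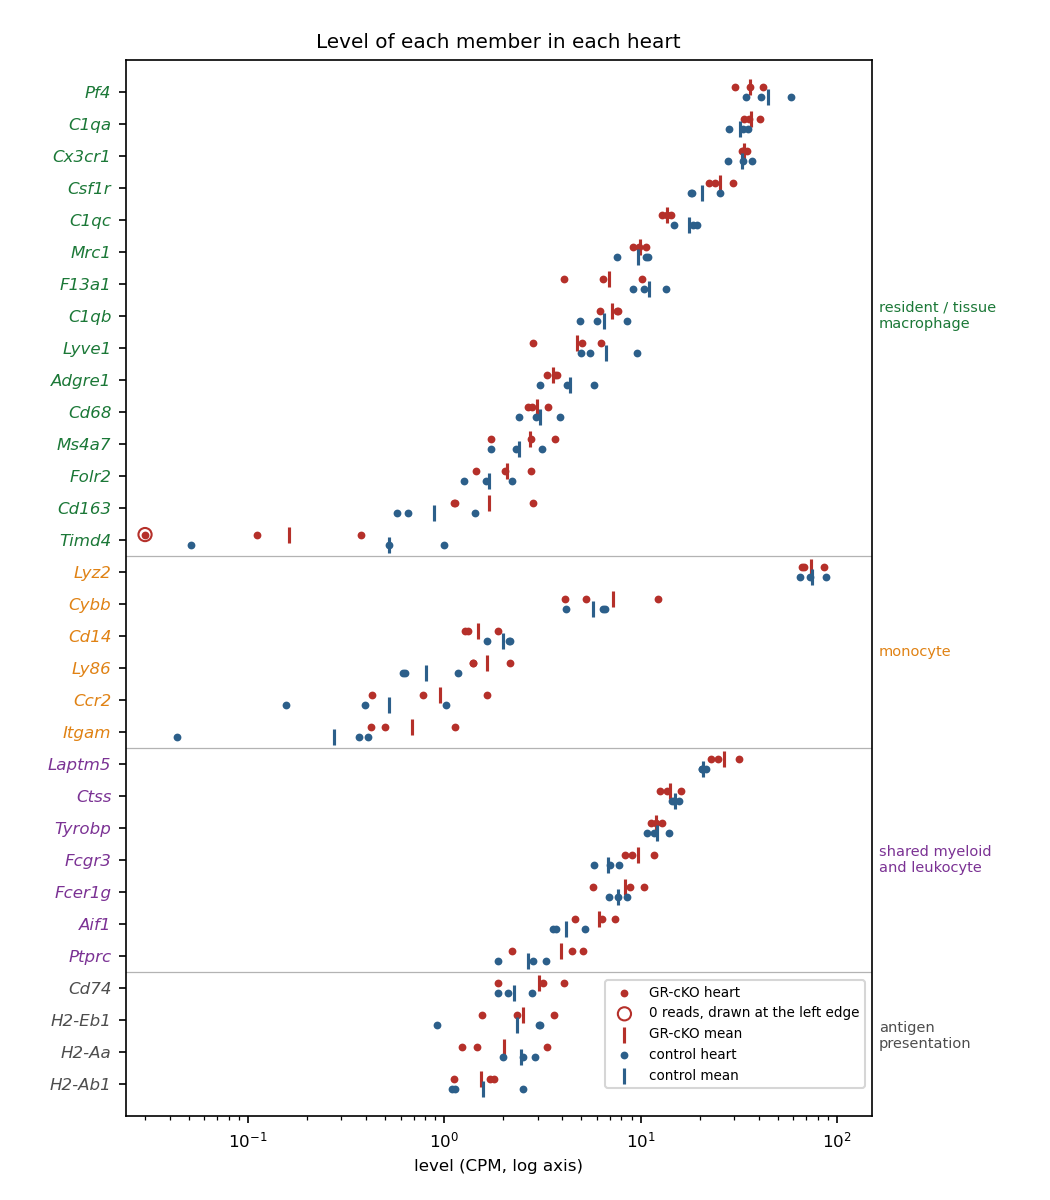
Level of each of the 32 members (rows, coloured by role) in each heart, in CPM on a log axis. Points are hearts and vertical ticks are group means, with GR-cKO in red above control in blue; the 0 reads of Timd4 in GR-cKO replicate 2 are drawn as a ringed point at the left edge, and most pairs of groups overlap.

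The genes of resident and tissue macrophages gave no call, with 8 of 14 tested members higher, 6 lower and a median log2 fold change of 0.029. Their summed level was 187 ± 2.31 CPM in GR-cKO and 195 ± 17.0 CPM in control hearts (SD, n = 3 each). Csf1r, the receptor for the growth factors CSF1 and IL-34 on which macrophages depend, had 22.4, 24.0 and 29.5 CPM in the GR-cKO hearts and 18.2, 25.5 and 18.0 CPM in the control hearts. GR-cKO replicate 3 was highest, but control replicate 2 lay above the other GR-cKO hearts, and the log2 fold change was 0.30 (95% interval -0.065 to 0.67). It was 0.18 without GR-cKO replicate 3 and 0.49 without control replicate 2. Its exons overlap those of Hmgxb3 on the opposite strand, so its count is uncertain where strand was not used. Adgre1, the F4/80 antigen, had 3.69, 3.77 and 3.33 CPM in the GR-cKO hearts and 3.06, 5.81 and 4.25 CPM in the control hearts, and the GR-cKO hearts lay inside the control range. Its log2 fold change of -0.28 was -0.019 without control replicate 2 and -0.48 without control replicate 1. Cd68, a lysosomal glycoprotein, had 2.79, 2.69 and 3.39 CPM in the GR-cKO hearts and 3.89, 2.93 and 2.41 CPM in the control hearts, with the GR-cKO hearts again inside the control range. Cx3cr1, the receptor for fractalkine, had 33.2, 32.8 and 34.7 CPM in the GR-cKO hearts and 33.3, 27.8 and 37.0 CPM in the control hearts. Its log2 fold change of 0.037 (95% interval -0.26 to 0.34) was among the most tightly bounded of the members.

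Scavenger receptors did not differ beyond the spread of the hearts. Mrc1, the mannose receptor, had 10.7, 9.86 and 9.20 CPM in the GR-cKO hearts and 10.7, 10.9 and 7.60 CPM in the control hearts, and its log2 fold change was 0.021 (95% interval -0.44 to 0.48). Cd163, a scavenger receptor for haemoglobin that glucocorticoids induce in human macrophages, had 1.12, 1.13 and 2.85 CPM in the GR-cKO hearts and 0.656, 1.44 and 0.577 CPM in the control hearts. Only GR-cKO replicate 3 lay above all controls, and the log2 fold change of 0.93 (95% interval -0.33 to 2.19) was 0.34 without it and 1.45 without control replicate 2. Ms4a7, a membrane protein of tissue macrophages, had 1.73, 2.78 and 3.66 CPM in the GR-cKO hearts and 3.15, 2.31 and 1.73 CPM in the control hearts, and the groups covered almost the same range. Its log2 fold change of 0.18 was -0.086 without GR-cKO replicate 3 and 0.43 without control replicate 1.

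The markers of the long-lived resident subset were thinly covered and showed no common direction. Lyve1, a hyaluronan receptor, had 5.03, 6.32 and 2.85 CPM in the GR-cKO hearts and 4.98, 9.61 and 5.51 CPM in the control hearts. GR-cKO replicate 3 was the lowest heart and control replicate 2 the highest, and the log2 fold change of -0.50 (95% interval -1.18 to 0.19) was -0.14 without control replicate 2. It was -0.23 without GR-cKO replicate 3 and -0.77 without GR-cKO replicate 2. Lymphatic endothelium also makes Lyve1. The summed level of its 6 markers was 347 to 521 CPM in GR-cKO and 403 to 479 CPM in control hearts, most of it from Prox1, which heart muscle also makes, and Ccl21a was at 0 reads in all 6 libraries. The part of lymphatic vessels in Lyve1 was not tested.

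Timd4, a receptor for phosphatidylserine on dying cells, had 2, 0 and 7 reads in GR-cKO and 12, 1 and 19 reads in control hearts and was not tested. Its 0 reads in GR-cKO replicate 2 allow a level of up to 0.142 CPM by a floor of 3 counts, which covers counting error only, and control replicate 2 was below that with 1 read. Folr2, folate receptor beta, had 1.45, 2.78 and 2.04 CPM in the GR-cKO hearts and 1.27, 2.21 and 1.63 CPM in the control hearts, with a log2 fold change of 0.30 (95% interval -0.67 to 1.28). With each heart left out in turn this ran from 0.039 to 0.54, lowest without GR-cKO replicate 2 and highest without control replicate 2. It shares exon sequence with Gm10602 on the opposite strand. Summed over Timd4, Lyve1 and Folr2 the hearts had 6.59, 9.10 and 5.27 CPM in GR-cKO and 6.78, 11.9 and 8.13 CPM in control, and the groups overlapped.

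F13a1 and Pf4 had the lowest values in GR-cKO replicate 3. F13a1, the A subunit of coagulation factor XIII that tissue macrophages store, had 6.48, 10.2 and 4.09 CPM in the GR-cKO hearts, against 10.4, 13.5 and 9.13 CPM in the control hearts. GR-cKO replicates 1 and 3 lay below all controls, while GR-cKO replicate 2 lay among them. The log2 fold change was -0.66 (SE 0.286, edgeR adjusted p = 0.998), with the smallest unadjusted p of the members. It was -0.39 without GR-cKO replicate 3 and -1.06 without GR-cKO replicate 2. Pf4, a chemokine that macrophages share with platelets, had 41.9, 36.0 and 30.2 CPM in the GR-cKO hearts and 34.5, 58.6 and 41.1 CPM in the control hearts. Control replicate 2 was far above the other hearts, and the log2 fold change of -0.31 was -0.069 without it. It was -0.20 without GR-cKO replicate 3 and -0.47 without control replicate 1.

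Platelets and their precursors also make F13a1 and Pf4. Of 8 platelet and megakaryocyte markers 5 were tested, none passed, and all 5 had negative log2 fold changes, with a median of -0.97. Their summed level was 9.90 to 10.8 CPM in GR-cKO and 13.8 to 18.6 CPM in control hearts, without overlap under all 4 scalings tried. The groups did not overlap in this direction for 5.27% of all tested genes. Among the untested markers, Gp6 had 11, 6 and 0 reads in GR-cKO and 3, 1 and 1 reads in control hearts. Tubb1 had 2 reads in GR-cKO replicate 3 and 0 in the other libraries, and Gp5 had a lower mean in GR-cKO hearts. Ppbp, a platelet chemokine chosen after its values were seen, had 0.447, 0.236 and 1.08 CPM in the GR-cKO hearts and 0.918, 2.16 and 2.73 CPM in the control hearts. Itga2b, the platelet integrin chosen in the same way, had 5.86, 6.65 and 6.56 CPM in the GR-cKO hearts and 8.79, 9.56 and 7.92 CPM in the control hearts. The part of platelets in F13a1 and Pf4 was not tested.

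The 3 chains of complement C1q, which macrophages make for the recognition of debris, showed no common direction. Their genes lie side by side on the minus strand of chromosome 4, with C1qa from 136895917 to 136898803, C1qc from 136889804 to 136893065 and C1qb from 136880129 to 136886187 (GRCm38). C1qa had 33.6, 35.6 and 40.4 CPM in the GR-cKO hearts and 35.4, 28.2 and 33.1 CPM in the control hearts, a log2 fold change of 0.18 (95% interval -0.12 to 0.48). It was 0.10 without GR-cKO replicate 3 and 0.094 without control replicate 2. C1qb had 7.59, 7.64 and 6.24 CPM in the GR-cKO hearts and 4.94, 6.01 and 8.55 CPM in the control hearts, a log2 fold change of 0.14 (95% interval -0.41 to 0.69). C1qc had 12.8, 13.7 and 14.3 CPM in the GR-cKO hearts, against 18.5, 19.5 and 14.8 CPM in the control hearts, a log2 fold change of -0.37 (95% interval -0.75 to 0.0049, edgeR adjusted p = 0.998). All GR-cKO hearts lay below all control hearts for C1qc, by a narrow margin, while for C1qa and C1qb the groups overlapped. The summed level of the chains was 57.3 ± 3.49 CPM in GR-cKO and 56.3 ± 2.63 CPM in control hearts (SD, n = 3 each). The reads of C1qc per read of C1qa, a ratio that no scaling of libraries can alter and that was chosen after its values were seen, was 0.382, 0.384 and 0.354 in the GR-cKO hearts and 0.523, 0.692 and 0.449 in the control hearts. The hearts of one group did not reach those of the other in this ratio, and it was given no test. For single genes, 5.27% of all tested genes did not overlap in this direction. The reads of C1qb per read of C1qa were 0.2259, 0.2146 and 0.1543 in the GR-cKO hearts. They were 0.1395, 0.2135 and 0.2583 in the control hearts, and the groups overlapped.

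Monocyte genes gave no call, with 3 of 5 tested members higher, 2 lower and a median log2 fold change of 0.32. With no filter on low counts the median was 0.59 over all 6. Their summed level was 85.6 ± 15.5 CPM in GR-cKO and 84.3 ± 13.2 CPM in control hearts (SD, n = 3 each). Most of this sum came from Lyz2, which macrophages also make, so it mainly follows that 1 gene. Lyz2 had 66.2, 68.3 and 86.4 CPM in the GR-cKO hearts and 72.8, 87.6 and 64.6 CPM in the control hearts, with GR-cKO replicate 3 and control replicate 2 highest. Its log2 fold change of -0.026 had a 95% interval of -0.31 to 0.26, the narrowest of the members. Ccr2, the receptor for the chemokine CCL2 that brings monocytes into tissue, had 0.782, 1.65 and 0.430 CPM in the GR-cKO hearts and 0.393, 1.03 and 0.157 CPM in the control hearts. The spread within each group was as wide as the gap between them, and the log2 fold change of 0.86 (95% interval -0.79 to 2.52) was 0.20 without GR-cKO replicate 2 and 1.76 without control replicate 2.

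Cybb, the membrane subunit of the phagocyte NADPH oxidase, rested on 1 heart. It had 5.30, 4.10 and 12.2 CPM in the GR-cKO hearts and 6.60, 6.47 and 4.20 CPM in the control hearts. GR-cKO replicate 3 lay far above the other 5 hearts, and the log2 fold change of 0.32 turned to -0.30 without it. Cd14, the co-receptor for bacterial lipopolysaccharide, had 1.28, 1.32 and 1.88 CPM in the GR-cKO hearts and 1.66, 2.16 and 2.15 CPM in the control hearts, and GR-cKO replicate 3 lay among the controls. Its log2 fold change of -0.41 was -0.61 without GR-cKO replicate 3 and -0.31 without GR-cKO replicate 1.

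Ly86, which partners the receptor CD180 on myeloid and B cells, had 1.40, 2.17 and 1.40 CPM in the GR-cKO hearts and 1.18, 0.616 and 0.629 CPM in the control hearts. All GR-cKO hearts lay above all control hearts, with 12 to 46 reads in a library, and the log2 fold change was 1.02 (95% interval -0.16 to 2.20, edgeR adjusted p = 0.998). A gene this rare can pass the filter on low counts through the group where it is higher. Itgam, the alpha chain of the integrin CD11b, had 9, 9 and 21 reads in GR-cKO and 1, 8 and 7 reads in control hearts and was not tested. Most of its exon sequence is shared with Gm49368 on the same strand, so its count is uncertain.

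The genes of myeloid signalling that other leukocytes share were the role whose summed level did not overlap between groups, and none of them passed. Of the 7 members, all tested, 5 were higher and 2 lower, with a median log2 fold change of 0.34. Their summed level was 75.3, 78.8 and 88.1 CPM in GR-cKO hearts, against 68.1, 69.3 and 71.1 CPM in control hearts. All GR-cKO hearts lay above all control hearts in this sum, and did so with TMM, with DESeq2's size factors and with library totals. With spike-in scaling the groups overlapped, at 73.9 to 92.4 CPM in GR-cKO and 63.1 to 75.7 CPM in control hearts. Groups without overlap occur in 4.70% of all tested genes in this direction, and the sum was given no test.

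In this role, Fcgr3 and Laptm5 were the members whose own groups did not overlap. Fcgr3, a low-affinity receptor for the Fc part of IgG (chromosome 1, 171051174 to 171064935, minus strand), had 8.32, 9.01 and 11.8 CPM in the GR-cKO hearts, against 5.77, 6.99 and 7.76 CPM in the control hearts. All GR-cKO hearts lay above all control hearts, GR-cKO replicate 3 the highest. The log2 fold change was 0.51 (SE 0.237, edgeR adjusted p = 0.998), and with each heart left out in turn it ran from 0.34 to 0.61. Laptm5, a lysosomal membrane protein of leukocytes (chromosome 4, 130913125 to 130936141, plus strand), had 22.9, 24.9 and 31.6 CPM in the GR-cKO hearts, against 21.5, 20.5 and 20.6 CPM in the control hearts. Here too the groups did not overlap, and the controls lay within 1 CPM of one another. The log2 fold change was 0.34 (SE 0.159, edgeR adjusted p = 0.998). It ran from 0.19 to 0.44, lowest without GR-cKO replicate 3.

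Neutrophils share several of these genes with macrophages. Of 12 neutrophil markers 6 were tested, none passed, and all 6 had positive log2 fold changes, as 51.3% of all tested genes had. Their summed level was 29.4, 21.7 and 21.4 CPM in GR-cKO hearts, against 15.1, 16.2 and 14.5 CPM in control hearts, most of it from S100a8 and S100a9, which monocytes also make. The groups did not overlap in this sum under all 4 scalings, which were added for this list after seeing the data, as for 4.70% of all tested genes in this direction. Elane, which defines neutrophil precursors, had no reads, and Mpo, another such gene, had 1 read in all. Of the tested markers, S100a8 and Ngp had log2 fold changes of 0.69 and 1.68 (edgeR adjusted p = 0.998 for each). Their groups did not overlap, as for 4.70% of all tested genes in this direction. S100a9 and Camp were at 0.54 and 0.70, with overlap, and Ltf and Mmp9 at only 0.016 and 0.030. At an unadjusted edgeR p under 0.05 there were 2 of the 6, or 33.3%, against 4.20% of all tested genes. Among the untested ones, Csf3r and Retnlg had lower means in GR-cKO hearts, and Cxcr2 and Mmp8 higher means. Csf3r had 2, 5 and 0 reads in GR-cKO and 6, 6 and 5 reads in control hearts. Mmp8 had 4, 8 and 16 reads in GR-cKO and 0, 2 and 1 reads in control hearts. The part of neutrophils in Fcgr3, Laptm5 and the sum of this role was not tested.

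Fcer1g and Tyrobp encode adaptors that pass signals from activating receptors, and FCER1G is needed for FCGR3 at the cell surface. Fcer1g had 10.4, 8.82 and 5.70 CPM in the GR-cKO hearts and 8.57, 6.88 and 7.71 CPM in the control hearts, a log2 fold change of 0.10 (95% interval -0.43 to 0.63). GR-cKO replicate 3, the highest heart for Fcgr3, was the lowest for Fcer1g, and without it the value for Fcer1g was 0.31. Tyrobp had 11.9, 12.9 and 11.3 CPM in the GR-cKO hearts and 11.8, 13.9 and 10.8 CPM in the control hearts, a log2 fold change of -0.012 (95% interval -0.42 to 0.40), and the GR-cKO hearts lay inside the control range.

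Aif1, the calcium-binding protein IBA1 of macrophages, had 4.63, 7.40 and 6.40 CPM in the GR-cKO hearts and 3.72, 3.60 and 5.24 CPM in the control hearts. GR-cKO replicate 1 lay below the highest control, and the log2 fold change was 0.56 (95% interval -0.053 to 1.17). Ptprc, the phosphatase CD45 of all nucleated blood cells, had 4.47, 2.22 and 5.11 CPM in the GR-cKO hearts and 1.88, 2.83 and 3.30 CPM in the control hearts, with GR-cKO replicate 2 among the controls and a log2 fold change of 0.56 (95% interval -0.24 to 1.36). With each heart left out in turn this ran from 0.32 to 0.84, lowest without GR-cKO replicate 3 and highest without GR-cKO replicate 2. Ctss, cathepsin S, which trims the invariant chain of class II, had 12.6, 13.7 and 16.1 CPM in the GR-cKO hearts and 14.9, 14.5 and 15.6 CPM in the control hearts, a log2 fold change of -0.088 (95% interval -0.47 to 0.29), or -0.19 without GR-cKO replicate 3.

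Antigen presentation genes were low in all 6 hearts and gave no call, with 2 higher and 2 lower. Their summed level was 9.11 ± 0.589 CPM in GR-cKO and 8.66 ± 1.32 CPM in control hearts (SD, n = 3 each). Cd74, the invariant chain that guides class II to the endosome, had 4.08, 1.89 and 3.17 CPM in the GR-cKO hearts and 2.80, 2.11 and 1.89 CPM in the control hearts. GR-cKO replicates 1 and 3 lay above all controls and GR-cKO replicate 2 level with the lowest, and the log2 fold change was 0.42 (95% interval -0.42 to 1.26). It was 0.16 without GR-cKO replicate 1 and 0.67 without GR-cKO replicate 2.

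The class II chains themselves scattered without a common order of hearts. H2-Aa, the alpha chain of I-A (chromosome 17, 34282744 to 34287823, minus strand), had 1.23, 1.46 and 3.33 CPM in the GR-cKO hearts and 2.89, 2.52 and 1.99 CPM in the control hearts. Its partner H2-Ab1, the beta chain (chromosome 17, 34257689 to 34269419, plus strand), had 1.12, 1.79 and 1.72 CPM in the GR-cKO hearts and 1.14, 2.52 and 1.10 CPM in the control hearts. H2-Eb1, the beta chain of I-E (chromosome 17, 34305867 to 34316674, plus strand), had 2.35, 3.63 and 1.56 CPM in the GR-cKO hearts and 0.918, 3.03 and 3.09 CPM in the control hearts. Their log2 fold changes were -0.30, -0.033 and 0.11, with 95% intervals of -1.25 to 0.65, -1.13 to 1.06 and -0.90 to 1.11. Each interval reached past 2-fold in at least 1 direction, so that a change of that size was not excluded. H2-Aa was at -0.87 without GR-cKO replicate 3 and -0.043 without GR-cKO replicate 1. With each heart left out in turn H2-Ab1 ran from -0.23 to 0.46 and H2-Eb1 from -0.28 to 0.36. The highest heart was a different one for each chain.

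The members were not spread evenly over the hearts in which they were highest or lowest. GR-cKO replicate 3 was the highest of the 6 hearts for 10 of the 30 tested members and the lowest for 4, against 23.0% and 22.0% of all tested genes. Control replicate 2 was the highest for 10 and the lowest for 5, against 17.9% and 18.4% of all tested genes. Control replicate 3 was the lowest for 9, more than any other heart, and the highest for 2, against 13% and 12.9% of all tested genes. GR-cKO replicate 3 was highest for Csf1r, Cd163, C1qa, Cybb, Fcgr3, Ptprc and Laptm5 among others, and lowest for Lyve1, F13a1, Pf4 and Fcer1g. Control replicate 2 was highest for Adgre1, Mrc1, Lyve1, F13a1, Pf4, C1qc and Lyz2 among others. Control replicate 3 was lowest for Csf1r, Cd68, Mrc1, Cd163, Ms4a7, Ccr2, Lyz2, Tyrobp and H2-Ab1. Reads of F13a1 per read of Csf1r, a ratio chosen after its values were seen, were 0.289, 0.426 and 0.138 in the GR-cKO hearts and 0.572, 0.528 and 0.507 in the control hearts. Reads of Lyve1 per read of Csf1r were 0.224, 0.263 and 0.0965 in the GR-cKO hearts and 0.274, 0.377 and 0.306 in the control hearts. Neither ratio overlapped between groups, and neither was tested. For single genes, 5.27% of all tested genes did not overlap in this direction. The ratios share Csf1r as their denominator, so they are not separate observations. GR-cKO replicate 3 was highest for Csf1r and lowest for F13a1, Lyve1 and Pf4, so it had to be the lowest heart in each ratio.

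**Figure D4:**
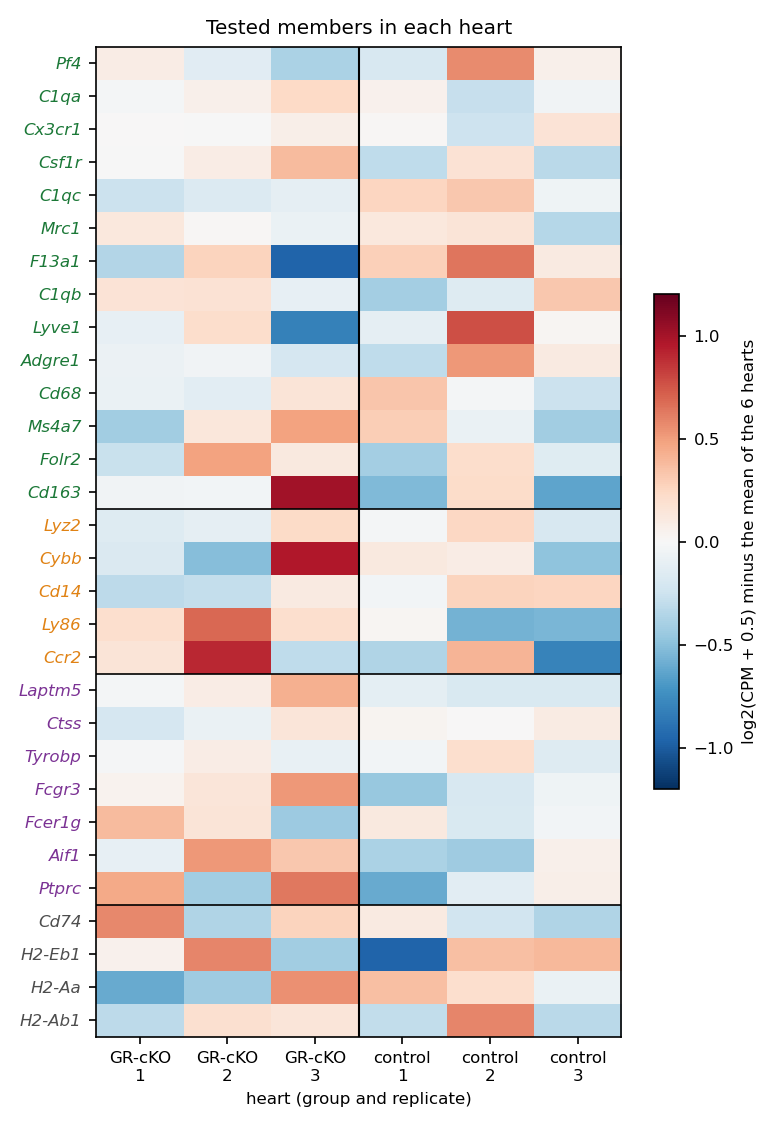
Deviation of each tested member (rows, by role) in each heart (columns, GR-cKO left of control) from the mean of the 6 hearts, as log2(CPM + 0.5), red above and blue below. Strong colours of both signs occur in hearts of both groups, and no block of rows splits cleanly at the line between the groups.

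No gene of the wider macrophage programme passed the test. Of 14 macrophage transcription factor genes 13 were tested and none passed, with 8 higher, 5 lower and a median log2 fold change of 0.060. Maf, a regulator of resident macrophages that other cells of the heart also make, was at 47.6 ± 2.74 CPM in GR-cKO and 54.7 ± 5.49 CPM in control hearts (SD, n = 3 each). Klf2 and Klf4 are factors that endothelial cells also make. Klf2 was at 156 ± 20.8 CPM in GR-cKO and 137 ± 10.3 CPM in control hearts. Klf4 was at 87.0 ± 6.69 CPM in GR-cKO and 76.1 ± 5.64 CPM in control hearts. Of 25 other tissue macrophage genes 22 were tested and none passed, with a median of 0.024. Apoe, the lipid carrier, was at 226 ± 33.3 CPM in GR-cKO and 234 ± 25.8 CPM in control hearts. Selenop, a selenium carrier, was at 137 ± 33.6 CPM in GR-cKO and 152 ± 18.3 CPM in control hearts, and Igf1, a growth factor, at 120.5 ± 10.2 CPM in GR-cKO and 119.7 ± 3.24 CPM in control hearts, and all 3 are also made by other cells.

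Ligands and chemokines that feed and place macrophages gave no call either. Of 19 genes 14 were tested, 10 higher and 4 lower, with a median of 0.11, and Csf2 and Csf3 had no reads. Csf1, the main macrophage growth factor, was at 20.7 ± 6.38 CPM in GR-cKO and 19.9 ± 1.70 CPM in control hearts (SD, n = 3 each), with a 95% interval of its log2 fold change of -0.37 to 0.48. Gas6, a ligand of receptors for the uptake of dying cells, was at 232 ± 55.7 CPM in GR-cKO and 213 ± 2.55 CPM in control hearts, with 296 CPM in GR-cKO replicate 3. Its log2 fold change of 0.12 was -0.090 without that heart. Cxcl12, a chemokine of stromal cells, was at 124 ± 2.14 CPM in GR-cKO and 116 ± 7.32 CPM in control hearts. Its groups did not overlap, as for 4.70% of all tested genes in this direction. Its log2 fold change was 0.096 (95% interval -0.13 to 0.33).

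Of 17 other monocyte genes 12 were tested and none passed, with 9 higher, 3 lower and a median of 0.67. Nr4a1, a factor of patrolling monocytes that is also an immediate early gene of many cells, had 12.6, 13.8 and 26.6 CPM in the GR-cKO hearts and 11.6, 10.4 and 10.6 CPM in the control hearts. GR-cKO replicate 3 was about as high as the other GR-cKO hearts together, and the log2 fold change of 0.70 (edgeR adjusted p = 0.998) was 0.28 without it. For Nr4a1 the groups did not overlap, as for 4.70% of all tested genes in this direction. Vcan, a matrix proteoglycan that fibroblasts also make, was at 48.0 ± 6.36 CPM in GR-cKO and 57.9 ± 2.38 CPM in control hearts (SD, n = 3 each), and Ifitm3, an antiviral membrane protein, at 82.8 ± 4.85 CPM in GR-cKO and 87.3 ± 3.97 CPM in control hearts. Of 24 genes of class II control and dendritic cells 12 were tested and none passed, with a median of 0.073. Ciita, the master activator of class II, had 2 reads in GR-cKO replicate 1 and 0 in the other libraries, and Flt3 and Clec9a had none. Nfyb and Nfyc encode subunits of the factor that binds the Y box. Nfyb was at 37.2 ± 3.80 CPM in GR-cKO and 33.8 ± 1.77 CPM in control hearts. Nfyc was at 53.2 ± 1.59 CPM in GR-cKO and 51.4 ± 7.96 CPM in control hearts. Zbtb46, a dendritic cell factor that endothelium also makes, was at 23.1 ± 1.40 CPM in GR-cKO and 21.7 ± 2.11 CPM in control hearts.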

How the data were processed

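Libraries of whole-heart RNA (100 ng each) were prepared with a QuantSeq kit that primes on poly(A) tails, per the labels' protocols. The deposited files hold raw counts, whole reads per Ensembl gene, 1 library per file. STAR 2.5.4a, featureCounts 1.6.2, cutadapt 1.16 and GRCm38 are named by the submitters' processing notes. Their annotation release and strand setting are not stated. Symbols and positions came from GENCODE M21 (GRCm38), which matched 52403 of 52550 mouse gene rows. The 92 ERCC and 7 SIRV spike-in rows stayed out of library sizes and tests.

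Genotype was tested over all genes with the edgeR 4.0.16 quasi-likelihood F test (limma 3.58.1, R 4.3.3), after filterByExpr by group (14860 genes) and TMM scaling, 2-sided, with Benjamini-Hochberg adjustment over all tested genes and a threshold of 0.05. Fold changes set GR-cKO over control. DESeq2 1.42.0 and limma voom were alternatives. The members and lists were chosen with earlier results of these data known. The genes named were all members, Nr3c1 and the 3 tested genes of highest mean CPM in each of 5 further lists, and any other gene named was chosen after its values were seen. Sums, ratios and lists have no test. Depth limits the rare members most.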

Additional observations from a re-analysis of the deposited data

How the results depend on the processing

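No alternative tried called a member: the count was 0 with DESeq2's size factors, library totals, spike-in scaling, no filter, a mean CPM of at least 1, DESeq2, limma voom, each heart left out and the replicate block. Over all genes edgeR called 1, against 2 with library totals, 10 with no filter, 4 with DESeq2 and 1 to 2 with a heart left out. At an unadjusted p under 0.05 there were 3 members, against 1 with library totals, 0 with spike-in scaling, 1 with the replicate block and 0 to 4 with a heart left out. The median log2 fold change of the members ran from 0.03 to 0.14 with a heart left out and from 0.09 to 0.19 otherwise. The summed level differed by 5.29 CPM, GR-cKO minus control, by -7.71 to 22.7 CPM with a heart left out, by -4.61 with library totals and by 17.0 with spike-in scaling. The log2 fold change of Nr3c1 ran from -1.18 to -0.98 with a heart left out. Of the 30 tested members 19 kept their direction under all alternatives run. The others crossed 0. With library totals Mrc1 was at -0.012 and Igf1 at -0.031. With spike-in scaling Lyz2 was at 0.013, Tyrobp at 0.055 and H2-Ab1 at 0.041. H2-Ab1 was at 0.074 with limma voom and 0.029 with the replicate block. With a heart left out the ranges were -0.21 to 0.14 for Cd68, -0.066 to 0.14 for Cx3cr1, -0.13 to 0.11 for Mrc1, -0.086 to 0.43 for Ms4a7, -0.025 to 0.39 for C1qb, -0.16 to 0.10 for Lyz2, -0.30 to 0.60 for Cybb, -0.089 to 0.096 for Tyrobp, -0.084 to 0.31 for Fcer1g, -0.23 to 0.46 for H2-Ab1 and -0.28 to 0.36 for H2-Eb1. They were -0.18 to 0.27 for Csf1, -0.090 to 0.24 for Gas6, -0.16 to 0.057 for Apoe, -0.026 to 0.075 for Igf1 and -0.066 to 0.15 for Nfyc. The cause of these shifts was not tested. The replicate numbers were not taken as pairs, since the deviations of same-numbered hearts correlated, across genes, at only 0.06, 0.06 and 0.01. GR-cKO replicates 1 and 2 did correlate best with the control of the same number. GR-cKO replicate 3 correlated best with control replicate 2, at 0.03 against 0.01.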

Other observations

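Other leukocytes of the heart gave these summed levels, with no test over the lists. B cell markers, 3 of 6 tested, had 5.75, 6.55 and 6.40 CPM in GR-cKO hearts, against 8.35, 7.04 and 9.39 CPM in control hearts. The groups did not overlap, as for 5.27% of all tested genes in this direction, but they did with spike-in scaling (means of 6.38 CPM in GR-cKO and 8.23 CPM in control hearts), an alternative added after seeing the data. Most of this came from Ighm, the heavy chain of immunoglobulin M. Mast cell and basophil markers, 5 of 7 tested, were at 26.8 ± 5.32 CPM in GR-cKO and 27.3 ± 4.08 CPM in control hearts (SD, n = 3 each), with overlap. T and NK cell markers, 3 of 8 tested, were at 5.15 ± 1.73 CPM in GR-cKO and 3.18 ± 2.16 CPM in control hearts, with overlap. None of the tested genes on these lists passed the edgeR test over all genes. B cells and dendritic cells also carry class II, and their part in the levels of the class II genes was not tested.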
